A study of Mus musculus with 12 samples.

Results

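Chemokines are small secreted proteins that direct the movement of leukocytes, and 58 of the 19246 genes in a table of mouse heart expression belong to the chemokine system. They were taken by symbol: every gene whose name begins with Ccl, Cxcl, Ccr, Cxcr or Ackr and a digit, plus Cx3cl1, Cx3cr1, Xcl1, Xcr1 and Cmklr1. That gave 35 ligands and 23 receptors. The rule used no measured value. Chemokine genes with other names, such as Pf4 and Ppbp, are outside it.

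RNA of hearts from mice of the strain given in the labels as IRC mouse was sequenced in 12 libraries, 3 in each of 4 groups. The control group had no treatment. The AOS group received alginate oligosaccharides, short sugar chains cut from the seaweed polymer alginate, at 10 mg/kg over 5 weeks. The busulfan group received 1 dose of busulfan at 40 mg/kg, an alkylating drug used in chemotherapy and before bone marrow transplantation. The busulfan plus AOS group received that dose followed by the same AOS course. Whether each library is a different animal is not stated in the labels, and the p-values therefore reflect only library-to-library spread, part of which may be technical. Age and sex are not given.

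Chemokine ligands bind receptors of the G protein-coupled family on leukocytes, which then move towards the source. Inflammatory ligands, such as those of CCR2 on monocytes and of CXCR3 on activated T cells, are made on stimulation by cytokines through NF-kappa-B and interferon signalling. Homeostatic ligands, such as CXCL12 and CCL21, are made continuously by stromal and endothelial cells. Atypical receptors, the Ackr genes, bind ligands without classical signalling and remove or transport them. In the heart the CCR2 axis is best known for recruiting blood monocytes after injury.

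Levels are given in FPKM, fragments per kilobase of transcript scaled to library depth, which allows comparison between genes. Library totals ran from 9929772 to 13620815 estimated counts, and the 58 genes together took 5027 to 8233 of these. Of the 58 genes, 33 were above 0 in all 12 libraries, 25 were listed at 0 in at least 1, and 29 had a mean under 1 FPKM. Fold changes come from edgeR's quasi-likelihood test on all 14687 genes that passed its filter on low counts, with Benjamini-Hochberg adjusted p-values and a threshold of 0.05. The filter kept 37 of the 58 chemokine genes and left out 21, of which 8 are receptors. Counts over the 37 describe those genes only, since a gene high in 1 group passes more easily.

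The libraries differed in tissue makeup within groups. The cardiomyocyte markers Myh6 and Tnnt2 were at 4774 FPKM or more and 4338 FPKM or more in every library, so heart muscle RNA was present in all 12. The 8 cardiomyocyte markers summed to between 53743 and 63950 FPKM in control and 28551 and 55313 in AOS. Their sums ran from 39366 to 52683 in busulfan and from 23845 to 40937 in busulfan plus AOS. The summed FPKM of 10 atrial markers ran from 327.5 to 8073 in control, from 62.5 to 14364 in AOS, from 42.5 to 2589 in busulfan and from 3145 to 14728 in busulfan plus AOS. The 6 lung epithelium markers summed to 4808 FPKM in AOS replicate 2 and 1756 in busulfan plus AOS replicate 1, against at most 269.8 in the other 10 libraries. The 10 adipocyte markers summed to between 1151 and 1384 FPKM in control, 1138 and 2061 in AOS, 1247 and 3780 in busulfan, and 1956 and 3110 in busulfan plus AOS. In busulfan plus AOS against control 10 of 10 were higher (53.0% of all genes), 6 at an unadjusted p under 0.05 (16.7%), and edgeR called 0. Of these markers, Lep was listed at 0 in some control libraries. The 5 liver markers reached 1204 FPKM in busulfan plus AOS replicate 2 and at most 255.7 in the other 11 libraries. The part of these lists in the chemokine levels was not tested. AOS replicate 2 held the highest value of 20 of the 58 chemokine genes (34.5%) and of 25.4% of all genes. In bulk tissue, fewer cells of a type and less RNA per cell cannot be told apart.

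**Figure D1:**
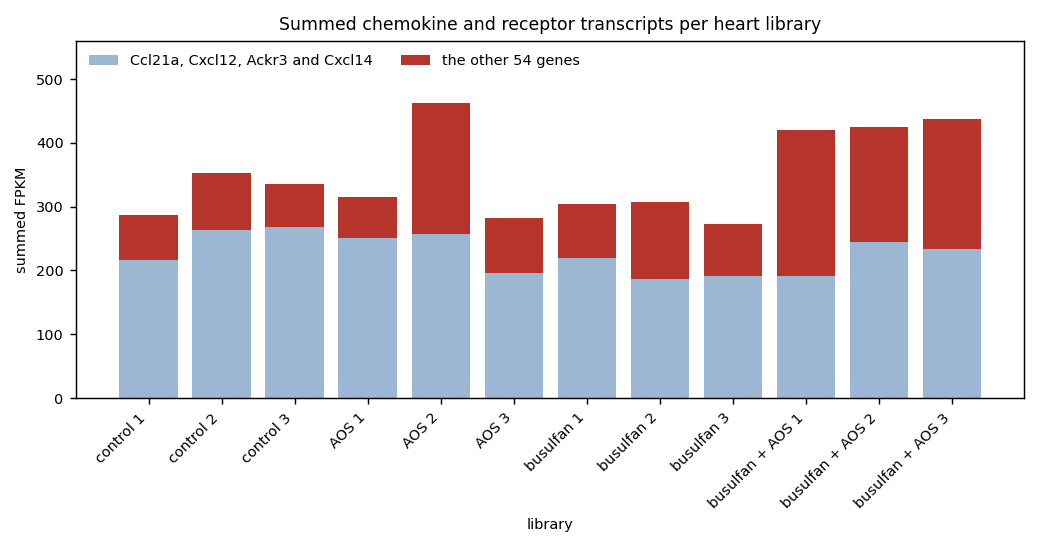
Summed FPKM of the 58 chemokine and receptor genes in each of the 12 libraries, split into the 4 most abundant genes and the other 54. The other 54 genes add up to between 180.1 and 229.2 FPKM in the busulfan plus AOS libraries and to 205.4 in AOS replicate 2, and to at most 121.6 in the remaining 8 libraries.

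Most chemokine RNA of these hearts came from 4 homeostatic genes. Ccl21a, a CCR7 ligand of lymphatic vessels, averaged 94.9 FPKM over the 12 libraries. Cxcl12, the ligand of CXCR4, averaged 52.8 FPKM. Ackr3, the atypical receptor that removes CXCL12, averaged 49.97 FPKM, and Cxcl14, a ligand of epithelia and stroma whose receptor is debated, averaged 28.7 FPKM. These 4 genes made up 74.9% to 79.5% of the summed FPKM in control libraries and 45.4% to 57.6% in the busulfan plus AOS libraries. The other 54 genes summed to between 68.9 and 88.7 FPKM in control, 65.0 and 205.4 in AOS, 82.0 and 121.6 in busulfan, and 180.1 and 229.2 in busulfan plus AOS. Next in the order of mean level came Ccl6 at 20.1, Cxcl13 at 12.4, Cxcl16 at 8.71, Cmklr1 at 7.46, Ccl24 at 7.38 and Ccl11 at 7.20 FPKM. Ccl21a shares nearly all of its sequence with Ccl21b and Ccl21c, so the split of reads among them is uncertain.

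Across the comparisons 1 gene of the set passed the edgeR threshold, the chemerin receptor gene Cmklr1, which the symbol rule adds by name. No chemokine ligand gene and no other receptor gene of the set passed it. Cmklr1 rose in busulfan plus AOS against control, among 45 genes called in all, which is 0.306% of the genes tested. In that comparison 13 of the 37 chemokine genes were higher at an unadjusted p under 0.05 (16.7% of all genes tested were) and 2 were lower (16.0% of all genes). The median log2 fold change of the 37 was 0.85, against 0.04 over all genes tested. Between busulfan plus AOS and busulfan alone edgeR called 0 chemokine genes and 0.0% of all genes. There, 10 of the 37 were higher at an unadjusted p under 0.05 (6.07% of all genes) and 0 were lower (4.11% of all genes), and the median log2 fold change was 0.47 against 0.001 over all genes. DESeq2 called 1 of the 37 in that comparison, Cxcl10 (0.361% of all genes), and limma on log2 FPKM called 0. Both comparisons use the same busulfan plus AOS libraries.

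**Figure D2:**
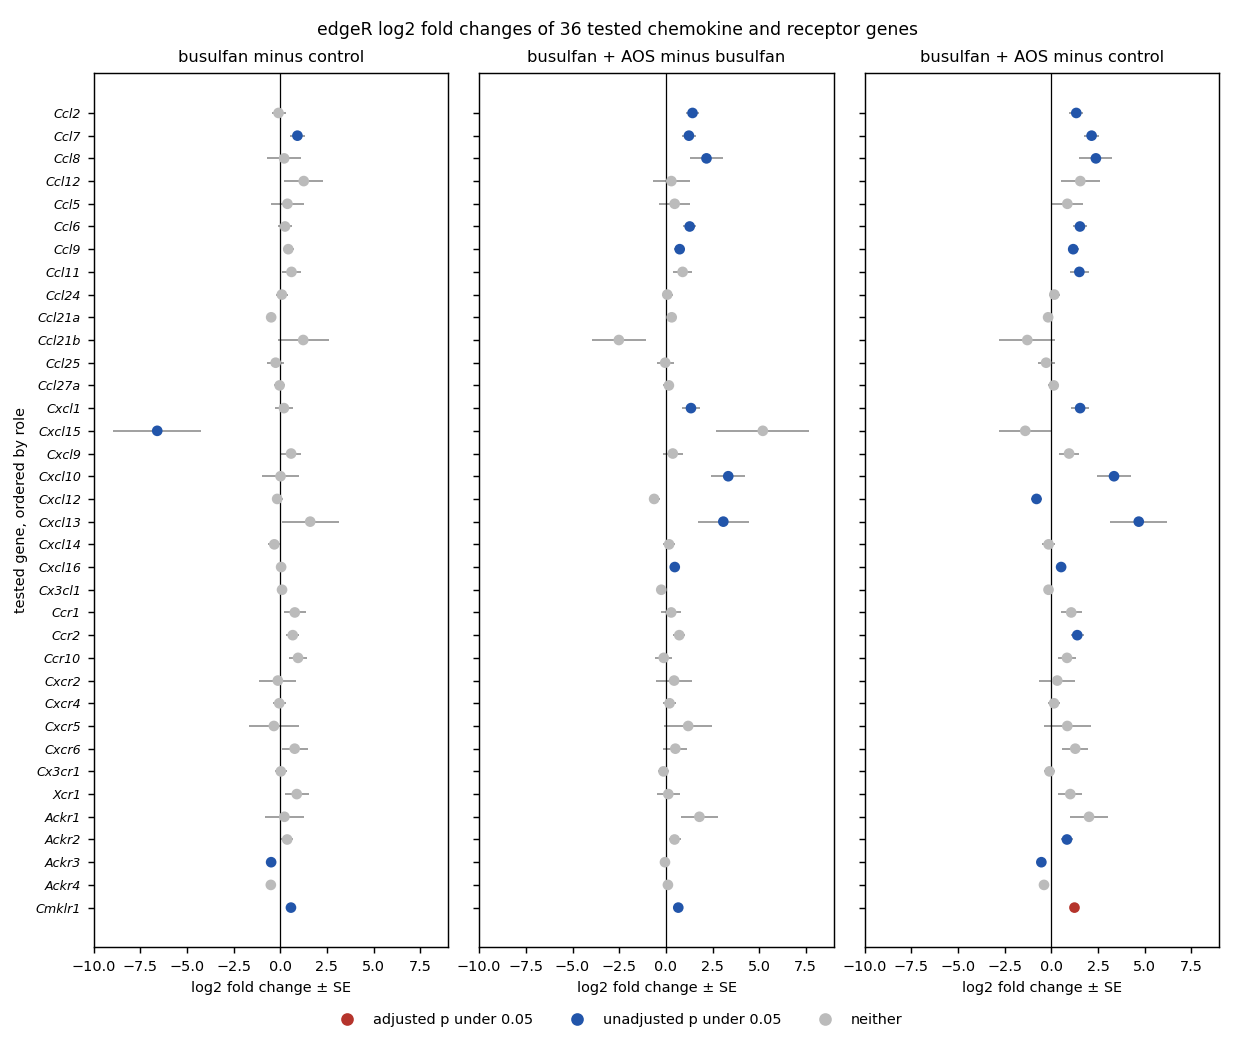
Log2 fold changes with their standard errors from edgeR for 36 of the 37 tested genes, ordered by role, in 3 comparisons that share libraries. Red marks an adjusted p under 0.05, which Cmklr1 alone reached at a log2 fold change of 1.24 in busulfan plus AOS against control, and blue an unadjusted p under 0.05. Cxcl15 is listed at 0 in every busulfan library, so its position depends on the prior count of the fit.

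**Figure D3:**
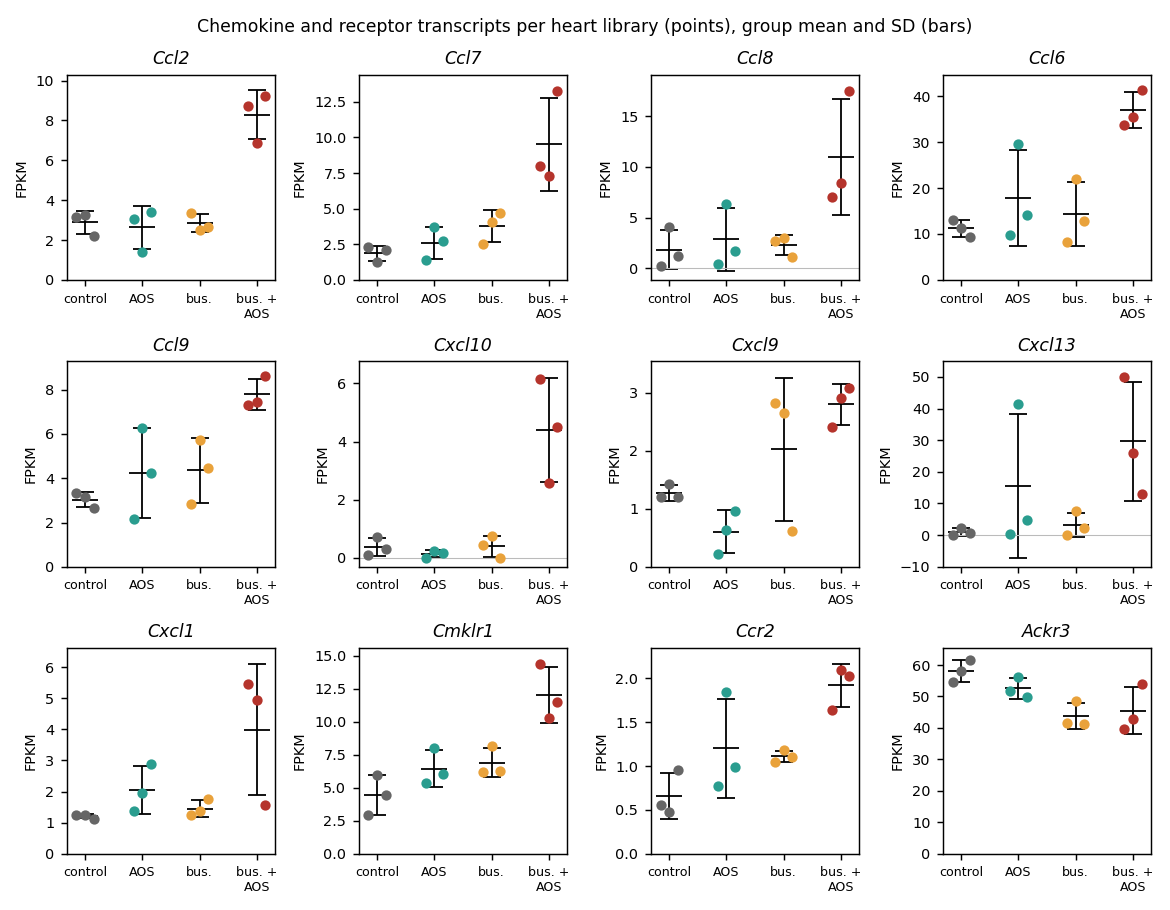
FPKM of 12 chemokine and receptor genes in each library (points), with the mean and SD of the 3 libraries of a group (bars), where bus. stands for busulfan. For Ccl2 the busulfan plus AOS libraries lie between 6.89 and 9.21 and the other 9 libraries between 1.42 and 3.41. For Ackr3 the control libraries lie between 54.5 and 61.6, above both busulfan groups, and overlap the AOS group, whose highest library is at 56.3.

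The CCR2 ligands, which call monocytes out of marrow and blood, were highest in busulfan plus AOS, although none passed the edgeR threshold. Ccl2 stood at 3.17, 3.27 and 2.22 FPKM in control, 3.07, 1.42 and 3.41 in AOS, 3.38, 2.5 and 2.67 in busulfan, and 8.73, 6.89 and 9.21 in busulfan plus AOS. All 3 libraries of the last group lay above the other 9, which overlapped one another. Its log2 fold change was 1.33 ± 0.37 (SE) against control (edgeR adjusted p = 0.0840, DESeq2 adjusted p = 0.0170) and 1.43 ± 0.37 against busulfan (edgeR adjusted p = 0.469, DESeq2 adjusted p = 0.0679). The gene (gene 20296, chromosome 11, 82035577 to 82037452, GRCm38) lies in a cluster with the other CCR2 ligands.

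Ccl7, a close relative of Ccl2 that also binds CCR2, was likewise highest in busulfan plus AOS. It stood at 2.28, 1.27 and 2.09 FPKM in control, 1.42, 3.70 and 2.70 in AOS, 2.52, 4.08 and 4.73 in busulfan, and 8.02, 7.30 and 13.3 in busulfan plus AOS. The busulfan libraries lay above all controls and below all libraries given both agents. Ccl7 had a log2 fold change of 2.15 ± 0.41 against control (edgeR adjusted p = 0.0646), and 0.92 ± 0.41 for busulfan alone against control (edgeR adjusted p = 0.468).

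Ccl8, a monocyte attractant that in mice also acts through CCR8, ranged from 0.27 to 4.03 FPKM in control, 0.46 to 6.38 in AOS and 1.14 to 2.98 in busulfan. It stood at 6.99, 8.44 and 17.5 FPKM in busulfan plus AOS, above the other 9 libraries, of which AOS replicate 2 was highest. Its log2 fold change against control was 2.38 ± 0.89 (edgeR adjusted p = 0.109). Ccl12, the mouse gene for MCP-5, did not separate the groups: 3.28, 0.59 and 9.79 FPKM in busulfan plus AOS against 6.90, 3.00 and 0.43 in busulfan and 0.51, 1.26 and 2.33 in control. The 4 ligands summed to 7.98 FPKM on average in control, 9.21 in AOS, 12.3 in busulfan and 33.3 in busulfan plus AOS.

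Ccr2 itself, their receptor on monocytes, was low. It stood at 0.55, 0.47 and 0.96 FPKM in control, 0.77, 1.84 and 0.99 in AOS, 1.05, 1.18 and 1.10 in busulfan, and 1.64, 2.09 and 2.03 in busulfan plus AOS. Both busulfan groups lay above all controls, and the group given both agents lay above busulfan alone, while AOS replicate 2 fell among the libraries given both. Ccr2 had a log2 fold change of 1.39 ± 0.34 in busulfan plus AOS against control (edgeR adjusted p = 0.0783, DESeq2 adjusted p = 0.00737).

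A further group of CC ligands is made up of Ccl3, Ccl4, Ccl5, Ccl6 and Ccl9. Most of its RNA came from Ccl6 and Ccl9, which in rodents act on CCR1 of myeloid cells. Ccl6 stood at 13.1, 11.2 and 9.33 FPKM in control, 9.80, 29.7 and 14.2 in AOS, 8.32, 21.9 and 12.8 in busulfan, and 33.8, 35.6 and 41.3 in busulfan plus AOS. The last group lay above the other 9 libraries, and replicate 2 was the highest library of both the AOS and the busulfan group. For Ccl6 the log2 fold change was 1.53 ± 0.36 against control (edgeR adjusted p = 0.0770) and 1.28 ± 0.36 against busulfan (edgeR adjusted p = 0.469).

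Ccl9 stood at 3.33, 3.15 and 2.64 FPKM in control and at 7.30, 7.46 and 8.60 in busulfan plus AOS, with 2.17 to 6.25 in AOS and 2.84 to 5.75 in busulfan. The groups at the ends of that order did not overlap, and the log2 fold change between them was 1.17 ± 0.30 (edgeR adjusted p = 0.0807). Ccl5, made by T and NK cells, behaved otherwise: it reached 13.5 FPKM in AOS replicate 2 against 0.43 to 3.51 in the other 11 libraries. Ccl3 and Ccl4 did not exceed 1 FPKM in any library and were not tested. T and NK cell markers were also highest in AOS replicate 2, where 11 of them summed to 17.1 FPKM against 1.65 to 5.38 elsewhere, and all 11 were above 0 there. Their part in the Ccl5 value was not tested.

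Eotaxin-1, the Ccl11 product that attracts eosinophils through CCR3, was variable. Ccl11 stood at 3.77, 4.23 and 3.46 FPKM in control, 3.93, 12.4 and 2.96 in AOS, 3.13, 10.3 and 5.17 in busulfan, and 16.8, 8.0 and 12.3 in busulfan plus AOS. The busulfan plus AOS libraries lay above all controls and overlapped the busulfan group, whose replicate 2 was high. Ccl24, the second eotaxin, showed no such step: its mean was 6.53 FPKM in control and 8.53 in busulfan plus AOS, with a log2 fold change of 0.16. Ccr3, the receptor of both, did not exceed 1 FPKM in any library.

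The CXCR3 ligands, made under interferon and attracting activated T and NK cells, held the largest step by fold among the inflammatory genes tested in busulfan plus AOS against busulfan, apart from Cxcl15, whose busulfan group is listed at 0. Cxcl10 stood at 0.10, 0.70 and 0.29 FPKM in control, 0.00, 0.25 and 0.17 in AOS, 0.43, 0.74 and 0.00 in busulfan, and 6.14, 2.56 and 4.49 in busulfan plus AOS. These values rest on 1, 8 and 3 counts in control and on 81, 31 and 54 in busulfan plus AOS. All 3 libraries given both agents lay above the other 9. The log2 fold change was 3.36 ± 0.92 against control (edgeR adjusted p = 0.0826), 3.34 ± 0.91 against busulfan (edgeR adjusted p = 0.469, DESeq2 adjusted p = 0.0472) and 4.82 ± 1.02 against AOS (edgeR adjusted p = 0.191).

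Cxcl9, the other CXCR3 ligand in the table, had another order. It stood at 1.20, 1.43 and 1.20 FPKM in control, 0.22, 0.63 and 0.97 in AOS, 2.82, 2.65 and 0.61 in busulfan, and 2.41, 2.92 and 3.08 in busulfan plus AOS. The AOS libraries lay below all controls and the libraries given both agents lay above them, while the busulfan group overlapped every other group. The log2 fold change was -1.20 ± 0.56 for AOS against control (edgeR adjusted p = 0.642) and 2.14 ± 0.56 for busulfan plus AOS against AOS (edgeR adjusted p = 0.300). Cxcr3, their receptor, ranged from 0.00 to 0.87 FPKM and was not tested.

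The promoters of Cxcl10 and Cxcl9 are shown as textbook interferon-induced chemokines, and that of Cmklr1 as the gene that passed the threshold. They were chosen after their values and motif matches were seen. Each runs from 250 bases before to 50 bases after the transcript start, on the minus strand of chromosome 5, from RefSeq on GRCm38.p6, and capitals mark matches to the motifs searched. Cxcl10 is at chr5:92348840-92349139, Cxcl9 at chr5:92328030-92328329 and Cmklr1 at chr5:113643554-113643853, a start inside the outer limits of that gene.
Cxcl10: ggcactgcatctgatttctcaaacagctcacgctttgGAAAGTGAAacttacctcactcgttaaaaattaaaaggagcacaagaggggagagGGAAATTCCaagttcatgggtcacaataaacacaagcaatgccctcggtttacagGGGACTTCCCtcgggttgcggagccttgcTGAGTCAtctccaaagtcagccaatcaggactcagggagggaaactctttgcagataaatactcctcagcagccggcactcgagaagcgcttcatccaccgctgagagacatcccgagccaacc
Cxcl9: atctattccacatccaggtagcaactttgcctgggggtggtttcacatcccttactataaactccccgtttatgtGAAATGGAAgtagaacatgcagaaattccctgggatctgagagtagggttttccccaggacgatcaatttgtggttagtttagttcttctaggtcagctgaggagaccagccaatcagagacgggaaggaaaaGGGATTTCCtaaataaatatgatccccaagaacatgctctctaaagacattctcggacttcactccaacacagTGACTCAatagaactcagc
Cmklr1: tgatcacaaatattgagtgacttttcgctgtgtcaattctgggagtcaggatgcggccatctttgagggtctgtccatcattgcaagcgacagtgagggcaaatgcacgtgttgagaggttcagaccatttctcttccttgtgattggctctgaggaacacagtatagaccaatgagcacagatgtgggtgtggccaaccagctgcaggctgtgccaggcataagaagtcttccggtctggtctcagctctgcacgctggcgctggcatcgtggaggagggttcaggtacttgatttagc
The motifs were searched on both strands as GGANNTNCC for NF-kappa-B, GAAANNGAA for the interferon-stimulated response element, TTCNNNGAA for the interferon-gamma activated site and TGANTCA for AP-1. In the Cxcl10 window the NF-kappa-B letters occurred at base 93 and, as a pair of overlapping matches, at bases 148 and 149, the interferon element at base 38 and AP-1 at base 177, counted from the first base printed. The Cxcl9 window held the interferon element at base 76, NF-kappa-B at base 209 and AP-1 at base 282. The Cmklr1 window held none of these letters. Of other genes with their highest mean in busulfan plus AOS, the Ccl6 window held none and the Ccr2 window only the interferon element, at base 165. Others with their highest mean there held NF-kappa-B letters (Cxcl1, Cxcl2, Cxcl3, Ccl12, Ackr1 and Ackr2), AP-1 (Ccl9) or the interferon element (Ccl3 and Cxcl14). Cxcl14 also held the activated site. Matches were also in genes whose highest mean was in another group. These were NF-kappa-B letters in Ackr3, Ccl25, Ccr3 and Cxcr2, AP-1 in Ccl28, Ccr3 and Ccr4, and the activated site in Ccl17 and Ccr6. Ccr1l1, with equal means in AOS and busulfan plus AOS, held AP-1 and the activated site. RefSeq gave promoters for 44 of the 58 genes, not for Ccl2 or Ccl7. The NF-kappa-B letters were in 12 of these 44 (27.3%) and in 14.9% of 27025 promoters, the interferon element in 5 (11.4%) and 8.57%, the activated site in 4 (9.09%) and 8.47%, and AP-1 in 7 (15.9%) and 7.93%. A match is a run of letters and was not tested as a binding site.

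Cxcl13 is the ligand that draws B cells to follicles through CXCR5. It had the widest range among the 33 genes above 0 in every library, 499.4-fold from lowest to highest. It stood at 0.10, 2.30 and 0.54 FPKM in control, 0.25, 41.5 and 4.69 in AOS, 0.16, 7.55 and 2.15 in busulfan, and 49.9, 26.0 and 13.0 in busulfan plus AOS. The libraries given both agents lay above all control and busulfan libraries but not above AOS replicate 2. Its log2 fold change was 4.68 ± 1.53 against control (edgeR adjusted p = 0.0928) and 3.70 ± 1.5 for AOS against control (edgeR adjusted p = 0.642), where the groups overlapped. The 6 mesothelium markers were high in the same libraries, summing to 106.5 FPKM in AOS replicate 2, 75.5 in busulfan replicate 2 and 58.1 to 180.4 in busulfan plus AOS, against at most 32.2 in the other 7 libraries. All 6 were above 0 in every library. The 5 B cell markers summed to 33.1 FPKM in AOS replicate 2, 4.62 to 13.1 in busulfan plus AOS and at most 7.08 elsewhere. The part of either list in the Cxcl13 values was not tested. Cxcr5 was at 1.72 FPKM in AOS replicate 2 and at most 0.65 elsewhere.

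Of the CXCR2 ligands, which attract neutrophils, Cxcl1 alone was above 1 FPKM in all 12 libraries. It stood at 1.23, 1.24 and 1.13 FPKM in control, 1.36, 1.94 and 2.89 in AOS, 1.23, 1.37 and 1.76 in busulfan, and 5.45, 4.96 and 1.57 in busulfan plus AOS. Of the libraries given both agents, 2 lay above every other library and the third fell within the range of the AOS and busulfan groups. The log2 fold change against control was 1.54 ± 0.48 (edgeR adjusted p = 0.0894). Cxcl15, the mouse lung chemokine lungkine, was at 0.56, 0.51 and 0.33 FPKM in control and listed at 0 in all busulfan libraries, so no fold is given. It was at 0.00, 1.19 and 0.20 FPKM in AOS and 0.55, 0.04 and 0.00 in busulfan plus AOS. Sftpc, 1 of the 6 lung epithelium markers, was at 6.68 to 13.6 FPKM in control and 0.12 to 0.38 in busulfan. In AOS replicate 2, the highest library of Cxcl15, Sftpc was at 0.95 FPKM, while the 6 markers summed to 4808. The part of lung RNA in the Cxcl15 values was not tested. Cxcl17, a mucosal ligand that was not tested, reached 8.90 FPKM in busulfan plus AOS replicate 1 and 4.33 in AOS replicate 2, the libraries with the highest lung epithelium sums, and at most 0.51 elsewhere.

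Cmklr1, the receptor for the attractant chemerin on macrophages, dendritic and NK cells, was the gene of the set with the smallest p-value. The gene (gene 14747, chromosome 5, 113612355 to 113650475) stood at 2.92, 5.96 and 4.44 FPKM in control, 5.33, 7.99 and 6.06 in AOS, 6.22, 8.16 and 6.30 in busulfan, and 14.4, 10.3 and 11.5 in busulfan plus AOS. Every library given both agents lay above the other 9, and the busulfan group lay above all controls. Cmklr1 rose in busulfan plus AOS against control by a log2 fold change of 1.24 ± 0.21 (edgeR adjusted p = 0.0479, DESeq2 adjusted p = 3.37e-05). Its adjusted p ranged from 3.37e-05 to 0.162 over 21 alternatives, of which 5 kept the call. Left out in turn, each library but AOS replicate 2 ended it, with log2 fold changes from 1.04 without control replicate 1 to 1.5 without control replicate 2. With the atrial markers as a covariate the log2 fold change was 1.00 (edgeR adjusted p = 0.134).

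Against busulfan alone the log2 fold change of Cmklr1 was 0.67 ± 0.21 (edgeR adjusted p = 0.469), and for busulfan against control it was 0.57 ± 0.21 (edgeR adjusted p = 0.437). Rarres2, which encodes chemerin, had 35.6, 69.3 and 37.1 FPKM in the controls, 31.8, 103.6 and 47.8 in AOS, 35.8, 105.5 and 56.3 in busulfan, and 121.3, 78.3 and 103.7 in busulfan plus AOS. The libraries given both agents lay above all controls and overlapped the other groups, with a log2 fold change of 0.91 ± 0.43 (edgeR adjusted p = 0.162). Adipoq, an adipocyte marker, was high in the same libraries, at 70.1 FPKM in AOS replicate 2, 123.6 in busulfan replicate 2 and 144.9, 62.2 and 98.7 in busulfan plus AOS, against at most 25.6 in the other 7. Of the 10 adipocyte markers, Plin4, Fabp4 and Lep did not separate these libraries, and the others did. Busulfan replicate 3 had Plin4 at 66.3, Fabp4 at 1280 and Lep at 1.90 FPKM. Plin4 was at 61.9 in busulfan plus AOS replicate 3, Fabp4 at 1220 in busulfan plus AOS replicate 2 and Lep at 1.44 in AOS replicate 2. The part of adipocyte RNA in the Rarres2 and Cmklr1 levels was not tested. The genes whose log2 CPM was most correlated with Cmklr1 over the 12 libraries were Plat (Pearson r 0.959), Col5a1 (0.958) and Sh3pxd2b (0.955). For Ccl7 they were an unnamed gene model (0.949), Calr (0.922) and Fcgr2b (0.911). For Ackr3 they were Ctf1 (0.933), Ncl (0.925) and Rab24 (0.915). These values describe libraries that share group, depth and tissue makeup.

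Ackr3 and Cxcl12 had lower levels in busulfan plus AOS than in control, although neither passed the edgeR threshold. Ackr3 (gene 12778, chromosome 1, 90203980 to 90215724) stood at 54.5, 58.03 and 61.6 FPKM in control, 51.8, 56.3 and 49.9 in AOS, 41.5, 48.6 and 41.2 in busulfan, and 39.5, 43.0 and 53.8 in busulfan plus AOS. Both busulfan groups lay below all controls, though busulfan plus AOS replicate 3 came within 1 FPKM of the lowest control. Ackr3 had a log2 fold change of -0.49 ± 0.12 for busulfan against control (edgeR adjusted p = 0.416, DESeq2 adjusted p = 0.0429) and -0.54 ± 0.12 for busulfan plus AOS against control (edgeR adjusted p = 0.0736, DESeq2 adjusted p = 0.00247).

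Cxcl12 stood at 55.7, 59.9 and 57.2 FPKM in control and 42.4, 45.6 and 43.7 in busulfan plus AOS, without overlap. It was at 69.1, 48.3 and 55.9 in AOS and 64.9, 44.9 and 45.9 in busulfan. The AOS group overlapped control, and the busulfan group overlapped both ends. The log2 fold change was -0.80 ± 0.29 in busulfan plus AOS against control (edgeR adjusted p = 0.106, DESeq2 adjusted p = 0.0444). Cxcr4, the signalling receptor of CXCL12, averaged 3.74 FPKM in control and 4.66 in busulfan plus AOS, with overlapping libraries. By edgeR fold change, cardiomyocyte markers had the same direction as Ackr3 and Cxcl12, with 8 of 8 lower in busulfan plus AOS against control. Of these, 5 were at an unadjusted p under 0.05 (16.0% of all genes were lower at that p). By mean FPKM, Ryr2 was not lower, at 93.3 in control and 99.1 in busulfan plus AOS. The part of these markers was not tested.

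Ccl21a and Cxcl14 overlapped between control and busulfan plus AOS. Ccl21a was at 102.7 ± 23.5 FPKM (SD, n = 3) in control, 97.7 ± 34.8 in AOS, 76.9 ± 6.44 in busulfan and 102.2 ± 16.6 in busulfan plus AOS. The busulfan libraries, at 79.4, 69.6 and 81.7, lay below all libraries given both agents, and 1 control library, at 76.9, fell among them. Cxcl14 averaged 31.0 ± 8.64 FPKM in the controls and 31.5 ± 7.66 in busulfan plus AOS. Cxcl16, the membrane-bound ligand of CXCR6, stood at 5.81, 8.32 and 6.69 FPKM in control, 6.22, 13.7 and 7.39 in AOS, 7.56, 8.76 and 6.98 in busulfan, and 12.8, 9.0 and 11.2 in busulfan plus AOS. Its log2 fold change against control was 0.52 ± 0.21 (edgeR adjusted p = 0.122).

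The remaining receptors were low. Of the 11 CC receptors none had a mean above 2 FPKM in any group, and 7 were not tested. Ccr7, Ccr6, Ccr8, Ccr9, Cxcr5 and Cxcr2 all had their highest value in AOS replicate 2. Ccr7, the CCL21 receptor of naive T and dendritic cells, was at 1.81 FPKM there, 0.49 in AOS replicate 3 and at most 0.38 in the other 10 libraries. Cx3cr1, the fractalkine receptor of resident and patrolling myeloid cells, averaged 1.85 FPKM in control and 1.97 in busulfan plus AOS, and its ligand gene Cx3cl1 averaged 3.34 and 3.41. Of the atypical receptors, Ackr2, which removes inflammatory CC ligands, was at 0.68, 0.96 and 0.42 FPKM in the controls and 1.19, 1.33 and 1.66 in busulfan plus AOS, with a log2 fold change of 0.83 ± 0.33 (edgeR adjusted p = 0.118).

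**Figure D4:**
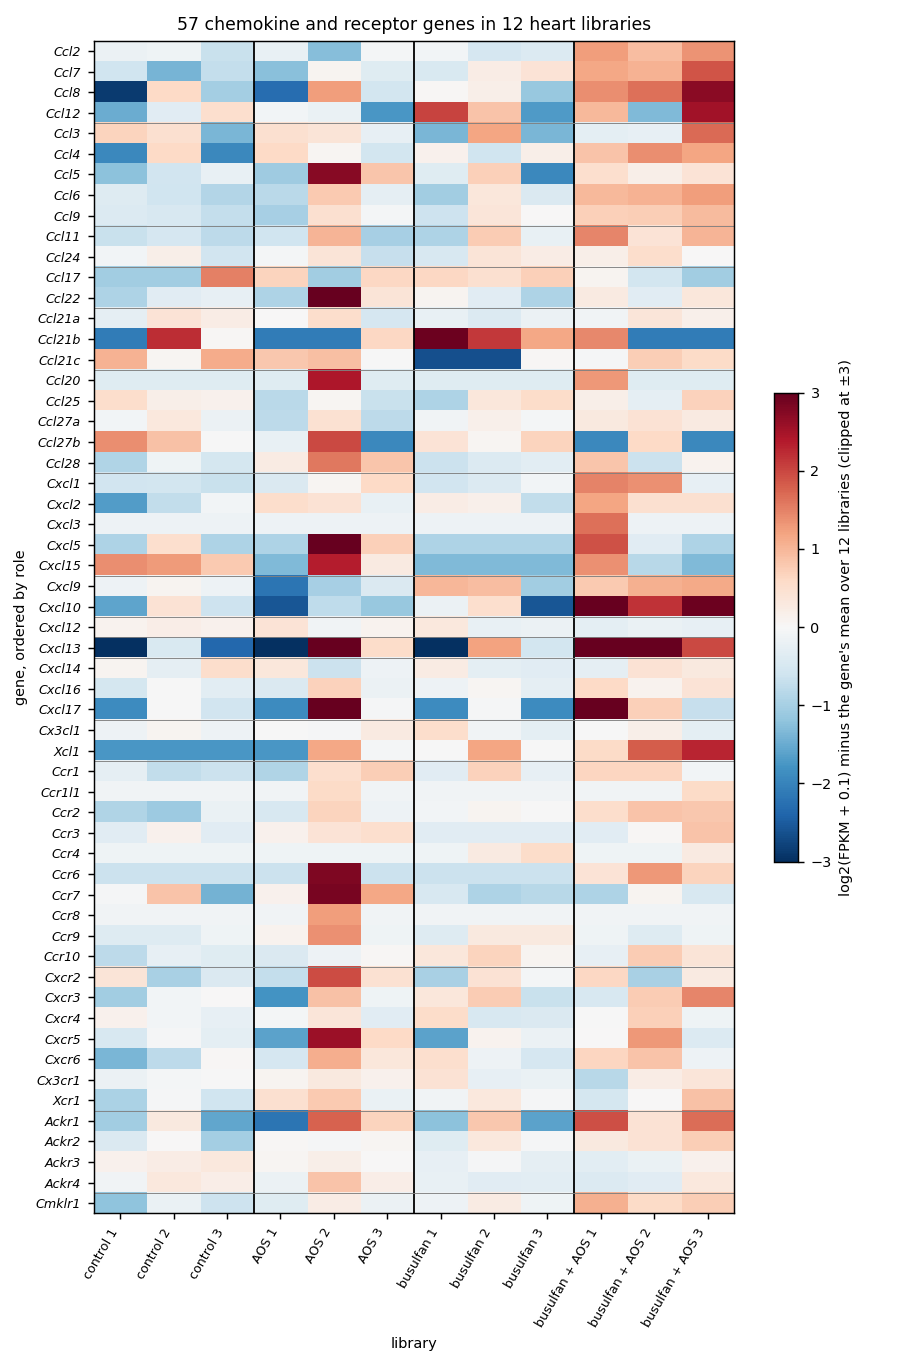
Log2(FPKM + 0.1) of 57 of the 58 genes in the 12 libraries, as the difference from each gene's mean over the 12, clipped at 3 in either direction, with genes ordered by role. The busulfan plus AOS columns are red for Ccl2, Ccl7, Ccl8, Ccl6, Ccl9, Cxcl10 and Cxcl13, and the AOS replicate 2 column is red for Ccl5, Ccl22, Ccr6, Ccr7 and Cxcr5, among the 20 genes with their highest value there.

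Neither busulfan alone nor AOS alone moved a chemokine gene past the edgeR threshold. For busulfan against control edgeR called 0 of 37 (0.0% of all genes), and 2 were higher at an unadjusted p under 0.05 (6.69% of all genes) and 2 lower (3.92%), while DESeq2 called 1, Ackr3 (0.354% of all genes), and limma 0. For AOS against control edgeR, DESeq2 and limma each called 0 chemokine genes, where edgeR called 0.0% and DESeq2 0.0545% of all genes. At an unadjusted p under 0.05, 2 were higher (4.05% of all genes) and 0 lower (2.87%). Those 2 were Cxcl13 and Ccl5, each highest in AOS replicate 2. For busulfan plus AOS against AOS edgeR called 0 of 37 (0.0204% of all genes, 3 genes) and limma 0, with 8 higher (5.48% of all genes) and 2 lower (3.94%) at an unadjusted p under 0.05. DESeq2 called 5 (1.06% of all genes): Ccl2, Ccl7, Cmklr1, Cxcl10 and Cxcl9.

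With 6 libraries on each side, edgeR called 0 of 37 for the main effect of busulfan (0.157% of all genes), with 9 higher (10.3% of all genes) and 4 lower (6.89%) at an unadjusted p under 0.05. The smallest adjusted p-values from edgeR there were those of Cmklr1 (log2 fold change 0.72, adjusted p = 0.0844), Ccl7 (1.38, adjusted p = 0.0844) and Ackr3 (-0.38, adjusted p = 0.0997). DESeq2 called 5 for that effect (4.01% of all genes) and limma 0. For the main effect of AOS edgeR, DESeq2 and limma called 0 of 37 (edgeR 0.0% and DESeq2 0.688% of all genes). At an unadjusted p under 0.05, 9 were higher (9.65% of all genes) and 0 lower (7.69%). The interaction tests whether AOS acts differently after busulfan than alone: edgeR, DESeq2 and limma called 0 of 37 (edgeR 0.0% and DESeq2 0.034% of all genes). At an unadjusted p under 0.05, 2 were above 0 (1.44% of all genes) and 0 below (1.5%). The 2 were Cxcl10, with a log2 difference of 4.81 ± 1.42, and Ccl2, with 1.65 ± 0.53 (edgeR adjusted p = 1.0 for both). A different response to AOS after busulfan was therefore not shown for any chemokine gene.

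By level, the separation was broader than by test. In busulfan plus AOS against control, 17 of the 37 genes had all 3 FPKM values above all 3 controls (30.5% of all genes did), and 2 had all below (10.7% of all genes). Against busulfan, 13 of 37 had all values above (15.3% of all genes) and 0 all below (6.54%). DESeq2 called 12 of 37 in busulfan plus AOS against control (16.3% of all genes). Of these, 10 were higher: Ccl2, Ccl6, Ccl7, Ccl9, Ccl11, Cxcl1, Cxcl10, Cxcl13, Ccr2 and Cmklr1, while Ackr3 and Cxcl12 were lower. Without AOS replicate 2, edgeR also called 12 (17.2% of all genes), with Cxcl16 in place of Cxcl1, whereas without any other library it called 0 of the tested chemokine genes.

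Genes that act with the chemokines were counted from lists. For reading these counts, 53.0% of all genes tested were higher in busulfan plus AOS than in control and 16.7% were higher at an unadjusted p under 0.05. Of 23 tested genes of chemokine receptor signalling, 20 were higher in busulfan plus AOS against control, 11 at an unadjusted p under 0.05, and edgeR called 0. The smallest p-values were those of Elmo1, a partner of the Rac activator Dock (log2 fold change 0.51), Grk6, a receptor kinase (0.37), and Arrb2, a beta-arrestin (0.70). Of 17 tested inducers and NF-kappa-B targets, 14 were higher, 10 at an unadjusted p under 0.05, and edgeR called 0. Nfkbia, the NF-kappa-B inhibitor and target, was at 18.6, 19.0 and 20.1 FPKM in the controls and 42.8, 33.4 and 26.4 in busulfan plus AOS (log2 fold change 0.64 ± 0.15, edgeR adjusted p = 0.0770). The cytokine genes Tnf, Il1b, Il6 and Ifng did not exceed 3 FPKM in any library. Mean levels in control and busulfan plus AOS were 0.61 and 0.33 FPKM for Tnf, and 1.74 and 1.36 for Il1b. For Il6 they were 0.13 and 0.60, and Ifng was listed at 0 in both groups.

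Of 20 interferon response genes, 20 were higher in busulfan plus AOS against control (53.0% of all genes). Of these 20, 19 were at an unadjusted p under 0.05 (16.7% of all genes), and edgeR called 0. Their median log2 fold change was 2.05. Their summed FPKM ran from 156.2 to 188.5 in control, 147.5 to 647.7 in AOS, 214.6 to 441.4 in busulfan and 486.2 to 1248 in busulfan plus AOS. Mx1, an interferon-induced antiviral GTPase, was low in the controls, at 0.18, 0.06 and 0.36 FPKM, and reached 2.86, 2.09 and 6.38 in busulfan plus AOS. It had a log2 fold change of 3.87 ± 0.90 (edgeR adjusted p = 0.0736). Against busulfan alone 19 of the 20 were higher (50.2% of all genes), 13 at an unadjusted p under 0.05 (6.07% of all genes), and edgeR called 0.

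Markers of macrophages and monocytes, which make and answer many of these ligands, moved in the same libraries. The 14 markers summed to between 337.2 and 387.2 FPKM in control, 340.3 and 763.5 in AOS, 341.7 and 554.9 in busulfan, and 689.7 and 891.1 in busulfan plus AOS, and none was at 0 in any library. In busulfan plus AOS against control 13 of 14 were higher (53.0% of all genes), with 0 called by edgeR. Ly6c2 was lower, with a mean of 3.98 FPKM in control and 2.40 in busulfan plus AOS. Adgre1 overlapped, at 16.9 to 30.4 FPKM in control and 21.2 to 36.0 in busulfan plus AOS. The mean sum of the 14 markers was 2.11 times that of control. The summed CCR2 ligands were 4.18 times, the sum of Ccl3, Ccl4, Ccl5, Ccl6 and Ccl9 3.05 times and the CXCR3 ligands 4.39 times their control means. Against busulfan these ratios were 1.73 for the markers, 2.70, 2.32 and 2.98. Of the mesothelium markers, Wt1 rose in busulfan plus AOS against control, by a log2 fold change of 1.71 ± 0.20 (edgeR adjusted p = 0.0134). The part of either cell type in the chemokine levels was not tested.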

How the data were processed

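RNA sequencing of 12 mouse heart libraries was deposited as a table of 19246 genes. It holds the authors' estimated counts, of which 19.7% to 22.8% per library are fractional. The other values, deposited by the authors and called only an expression value per the file headers, were taken as FPKM: for 1097 genes above 50 in every library the implied gene length differed from library to library by a median of 0.457%. Per the submitters' processing notes the genome was mm10. For the aligner, counter and annotation, the tool is not given in the sources used here. Group means computed by the authors, in 8 columns, were not used. The tissue label reads Cells, while the extraction protocol names heart. Groups came from the sample titles, whose codes are longer than those the design text explains, with HBA0 read as busulfan alone.

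Counts were rounded, moving no library total by more than 18.05. The edgeR 4.0.16 quasi-likelihood test (R 4.3.3, filterByExpr, TMM, 4 group means over all 12 libraries, common biological coefficient of variation 29.1%) kept 14687 genes and left out 4559, with a Benjamini-Hochberg threshold of 0.05 over all of them. Standard errors are the absolute log2 fold change over the square root of F. DESeq2 1.42.0, limma 3.58.1 on log2(FPKM + 0.1) and log2(FPKM + 1), other scalings, no filter, a replicate block, an atrial covariate of 10 markers, fits on the groups compared alone and leaving out each library were alternatives. The test was checked on drawn counts with 200 genes changed in busulfan plus AOS. Against control it recovered 43% of 2-fold and 78.5% of 4-fold changes, and against busulfan 39.5% and 81%. Precision is limited by 3 libraries per group and, for low genes, by their counts.

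Genes were named by a rule: those called, the 5 smallest p-values per comparison, the 10 highest means and the members of each role group described. The chemokine genes and all lists were chosen with earlier results of these data known. Coordinates and promoters are those of RefSeq on GRCm38.p6, the assembly of mm10. Of the set, 1 gene is counted in the totals but not reported here by name.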

Additional observations from a re-analysis of the deposited data

How the results depend on the processing

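The 40 gene results followed here are those called and the 5 smallest p-values per comparison, where a stable direction is likely. Other genes named with fold changes are not among them. No direction of the 40 reversed: of 823 alternative values, 779 kept direction and side of the threshold and 28 newly passed it. The other 16, all for Cmklr1 in busulfan plus AOS against control, lost it. Scaling by library totals moved the median log2 fold change of all genes by up to 0.19. For these the cause was not tested. Chemokine genes called in busulfan plus AOS against control numbered 1, the chemerin receptor gene Cmklr1. They were 12 with DESeq2, 7 with the groups compared alone, 2 and 4 with limma at pseudocounts 0.1 and 1, and 0 with DESeq2 size factors, no filter on low counts, the atrial covariate or the replicate block, and 0 to 12 leaving out 1 library. Elsewhere 0 were called. DESeq2 called 1 for busulfan against control, 1 for busulfan plus AOS against busulfan, 5 against AOS and 5 for the busulfan main effect, where the atrial covariate gave 2 and leaving out 1 library 0 to 2.

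Over all genes, busulfan plus AOS against control gave 45 calls. It gave 2391 with DESeq2, 422 with those groups alone, 82 and 74 with limma, 16 without the filter, 26 with the replicate block, 2 with the atrial covariate and 0 to 2546 leaving out 1 library, the highest without AOS replicate 2 and 0 without control replicate 1 or busulfan plus AOS replicate 1. Against AOS the 3 calls became 155 with DESeq2, 1 with those groups alone, 0 with library totals, no filter, limma at pseudocount 1, the replicate block or the atrial covariate, and 0 to 1 leaving out 1 library. The busulfan main effect had 23 calls, then 589 with DESeq2, 290 with the atrial covariate, 5 with library totals, 5 with the replicate block and 1 to 345 leaving out 1 library.

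The other comparisons had 0 calls. Busulfan against control gave 52 with DESeq2, 111 with the atrial covariate, 3 with those groups alone, 1 with limma at pseudocount 1 and 0 to 4 leaving out 1 library. AOS against control gave 8, 3 and, with limma at pseudocount 1, 1. Busulfan plus AOS against busulfan gave 53 with DESeq2, 2 with the covariate and 0 to 1 leaving out 1 library. The AOS main effect gave 101 and 1, and the interaction 5 and 1. Replicate numbers were not used as pairs in the main fit. Same-numbered deviations correlated from -0.44 to 0.53, and 6 of 12 libraries correlated best with their own number. Replicate 2 had the highest atrial sum in control, AOS and busulfan, but not in busulfan plus AOS. These values do not settle whether same-numbered libraries belong together.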

Other observations

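AOS replicate 2 and AOS replicate 3 both held several chemokine genes that AOS replicate 1 had at or near 0. Ccl22, a CCR4 ligand of dendritic cells, was at 1.42, 0.15 and 0.00 FPKM in AOS replicates 2, 3 and 1, Cxcl13 at 41.5, 4.69 and 0.25, and Cxcr5 at 1.72, 0.36 and 0.00. The level in replicate 3 was 10.6% of that in replicate 2 for Ccl22, 11.3% for Cxcl13, 27.1% for Ccr7, 26.0% for Ccl5 and 20.9% for Cxcr5. It was 9.09% for Cxcl5 and 6.0% for Cxcl17, and Ccr6 was at 1.0 and 0.00 FPKM. For the airway genes Scgb1a1 and Bpifa1 it was 5.58% and 5.40%, and for Bmp10, 1 of the 10 atrial markers, 6.14%. All 10 atrial markers together summed to 14364, 1646 and 62.5 FPKM in AOS replicates 2, 3 and 1. In the same order the B cell markers summed to 33.1, 7.08 and 1.49 FPKM, and the T and NK cell markers to 17.1, 4.69 and 1.90. The part of these lists in the chemokine levels was not tested.

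Of the chemokine partners outside the symbol rule, Mif, a CXCR4 and CD74 ligand, was at 161.7, 144.6 and 113.1 FPKM in control and 86.4, 95.9 and 104.0 in busulfan plus AOS, without overlap, with a log2 fold change of -0.72 ± 0.22 (edgeR adjusted p = 0.0870). Dpp4, a peptidase that trims CXCL10 and CXCL12, was at 0.78, 1.75 and 1.24 FPKM in control and 7.24, 4.42 and 4.87 in busulfan plus AOS (log2 fold change 1.94 ± 0.67, edgeR adjusted p = 0.0977). Cd74 was at 78.0 to 95.2 FPKM in control and 117.1 to 199.3 in busulfan plus AOS (edgeR adjusted p = 0.144).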
